A study of Mus musculus with 9 samples.

Results

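The cytosolic ribosomal protein genes were followed across 9 RNA-seq libraries of a mouse prostate cancer cell line. They were taken by symbol: every gene of the count table named Rpl or Rps with a number, Rplp0 to Rplp2, or Rpsa, without the pseudogenes and the Rps6k kinases. This gave 82 of the 12125 genes in the table. Of these, 31 encode core proteins of the small (40S) subunit, 42 encode core proteins of the large (60S) subunit, and 3 encode the 60S stalk. A further 3 are paralogues of core genes (Rpl22l1, Rpl36al and Rps27l), 2 encode proteins that are not part of the mature ribosome (Rps19bp1 and Rpl7l1), and 1, Rpl37rt, is annotated as a transcribed processed pseudogene. The symbols caught 76 of the 77 core and stalk genes on the list used here, and Rpl26 was not analysed here. They left out 9 kinases and 3 pseudogenes.

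The cells were TC2R, mouse prostate adenocarcinoma cells of C57/BL6 genotype, made from the TRAMP-C2 line with a lentivirus for activated H-ras G12V and a second lentivirus, so that all 3 groups carried both. The IL27_pepL group received a pcDNA3.1 plasmid for interleukin-27 with the C-terminal peptide pepL, meant to target it to IL-6Rα. The IL27_scr group received the same backbone with interleukin-27 and a control C-terminal peptide, and the plasmid_control group received the empty vector. Each group had 3 libraries, each well received 1.5 µg of plasmid with 2 µL of Lipofectamine 2000, transfection lasted 6 h, and cells were collected 24 h after its start. The plasmids were expressed transiently in one engineered line, and nothing in the labels says whether the 3 replicates of a group came from separate cultures, so the spread behind every p-value may be no more than technical.

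Ribosomal proteins and ribosomal RNA together build the ribosome, and cells make the proteins in near-equal numbers. Many of their mRNAs are very short, are among the most abundant in growing cells, and begin with a C followed by a run of pyrimidines, the 5′ terminal oligopyrimidine (TOP) motif. Through this motif and the protein LARP1, the kinase mTORC1 controls their translation and stability, and in cancer cells Myc and Ras signalling are known to raise ribosome production.

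To show that sequence, the 30 bases around the annotated start (15 before and 15 from the start on) follow for 12 genes. These are 8 of the 13 members with the motif and 4 of the 49 without it, as counted below. They are RefSeq sequences of GRCm38.p6, written 5′ to 3′ on the gene's own strand, and the capitals mark the pyrimidine run that begins with a C at the start base.
Rps6 (40S, chr4:86857353-86857382, minus strand): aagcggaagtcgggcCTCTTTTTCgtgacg
Rps18 (40S, chr17:33955651-33955680, minus strand): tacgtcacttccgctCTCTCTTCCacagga
Rps10 (40S, chr17:27635230-27635259, minus strand): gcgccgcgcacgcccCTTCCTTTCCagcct
Rps15a (40S, chr7:118116133-118116162, minus strand): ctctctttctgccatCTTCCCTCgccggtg
Rpl15 (60S, chr14:18270972-18271001, minus strand): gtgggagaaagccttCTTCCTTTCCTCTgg
Rpl28 (60S, chr7:4792950-4792979, plus strand): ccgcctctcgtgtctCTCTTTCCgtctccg
Rpl35 (60S, chr2:39005117-39005146, minus strand): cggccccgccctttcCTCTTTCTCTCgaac
Rplp2 (stalk, chr7:141447636-141447665, plus strand): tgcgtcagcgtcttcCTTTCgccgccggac
Rpl41 (60S, chr10:128549154-128549183, minus strand): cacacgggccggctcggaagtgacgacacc
Rplp0 (stalk, chr5:115559452-115559481, plus strand): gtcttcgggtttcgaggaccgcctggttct
Rps25 (40S, chr9:44407699-44407728, plus strand): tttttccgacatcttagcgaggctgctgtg
Rps4x (40S, chrX:102189377-102189406, minus strand): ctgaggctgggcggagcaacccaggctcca

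A start sequence was at hand for 62 of the 82 genes. In 13 of them, 21%, the annotated start base was a C that opened a run of at least 5 pyrimidines (C or T, read on the gene strand), against 3.01% of 27025 genes. The start used in these cells was not measured, and a run that begins a few bases from the annotated start is not counted. The median log2 fold change in IL27_pepL against plasmid_control, introduced below, was 0.28 for the 13 genes with the run and 0.27 for the 49 without it, so genes with and without the motif at the annotated start lay close together.

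The libraries held 27609884 to 35959983 counts, and the fitted biological coefficient of variation was 5.76%. The plasmid gene Il27 matched the labels: it stood at 6.94, 7.49 and 8.44 CPM (counts scaled to library size) in IL27_pepL, at 6.82, 6.71 and 5.90 CPM in IL27_scr and at 0, 0.0334 and 0.0364 CPM in plasmid_control. Its level was higher in every IL27_pepL library than in every IL27_scr library, and it rose from replicate 1 to replicate 3 of IL27_pepL. The part of this difference in the values below was not tested. Vim, a mesenchymal filament gene, had 3136, 2944 and 3385 CPM in IL27_pepL, 2831, 2820 and 2874 CPM in IL27_scr and 2835, 2729 and 2839 CPM in plasmid_control. Its log2 fold change in IL27_pepL was 0.17 against plasmid_control and 0.15 against IL27_scr (edgeR adjusted p = 0.104 and 0.126), and DESeq2 called it higher against plasmid_control. The epithelial markers Krt8 (1.68 to 2.51 CPM) and Cdh1 (0.267 to 0.761 CPM) were low, and Epcam, Krt18 and Pbsn were not among the genes of the table, so the epithelial label rests on little signal. Of 5 markers of other cell types, Ptprc, Adgre1, Pecam1 and Cd3e were not among the genes, and Cd68, of macrophages, had 6.96 to 7.93 CPM in IL27_pepL, 6.60 to 6.95 CPM in IL27_scr and 5.85 to 6.85 CPM in plasmid_control (edgeR adjusted p = 0.194 for IL27_pepL against plasmid_control and 0.495 against IL27_scr). The IL27_pepL libraries lay above the 6 others for Vim and for Cd68, and the part of either in the ribosomal protein values was not tested. Rn45s, the ribosomal RNA precursor, took 0.364% ± 0.098 of counts in IL27_pepL, 0.373% ± 0.052 in IL27_scr and 1.37% ± 0.148 in plasmid_control (SD, n = 3 each), and the part of this residual ribosomal RNA in the values below was not tested.

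Ribosomal protein genes took a larger share of counts in 2 of the 3 IL27_pepL libraries than in any other library. Together the 82 genes held 6.06%, 7.12% and 7.92% of counts in IL27_pepL replicates 1, 2 and 3, 5.49%, 6.30% and 6.09% in IL27_scr, and 5.87%, 5.75% and 6.10% in plasmid_control. Replicates 2 and 3 of IL27_pepL stood above all other libraries, whereas replicate 1 lay below IL27_scr replicates 2 and 3 and plasmid_control replicate 3, so that the groups overlapped. The group means were 7.03% ± 0.936 in IL27_pepL, 5.96% ± 0.422 in IL27_scr and 5.91% ± 0.181 in plasmid_control (SD, n = 3 each). In bulk RNA, fewer cells of a kind and less RNA per cell cannot be told apart.

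Set against the mean of the 3 plasmid_control libraries, 66 of the 82 genes were higher in IL27_pepL replicate 1, with a median difference of 0.03 in log2 CPM. In replicate 2, 81 genes were higher, with a median of 0.30, and in replicate 3 all 82 were higher, with a median of 0.46. Of the IL27_scr libraries, replicate 1 had 1 gene above the control mean and a median of -0.15, replicate 2 had 78 and 0.08, and replicate 3 had 69 and 0.03. Over all 12125 genes the median of each of these 6 libraries was 0.00 in log2 CPM, and 48.6% to 51.3% of genes were above the control mean. The highest of the 9 libraries was IL27_pepL replicate 3 for 64 of the 82 genes and replicate 2 for the other 18, and the lowest was IL27_scr replicate 1 for 75.

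**Figure D1:**
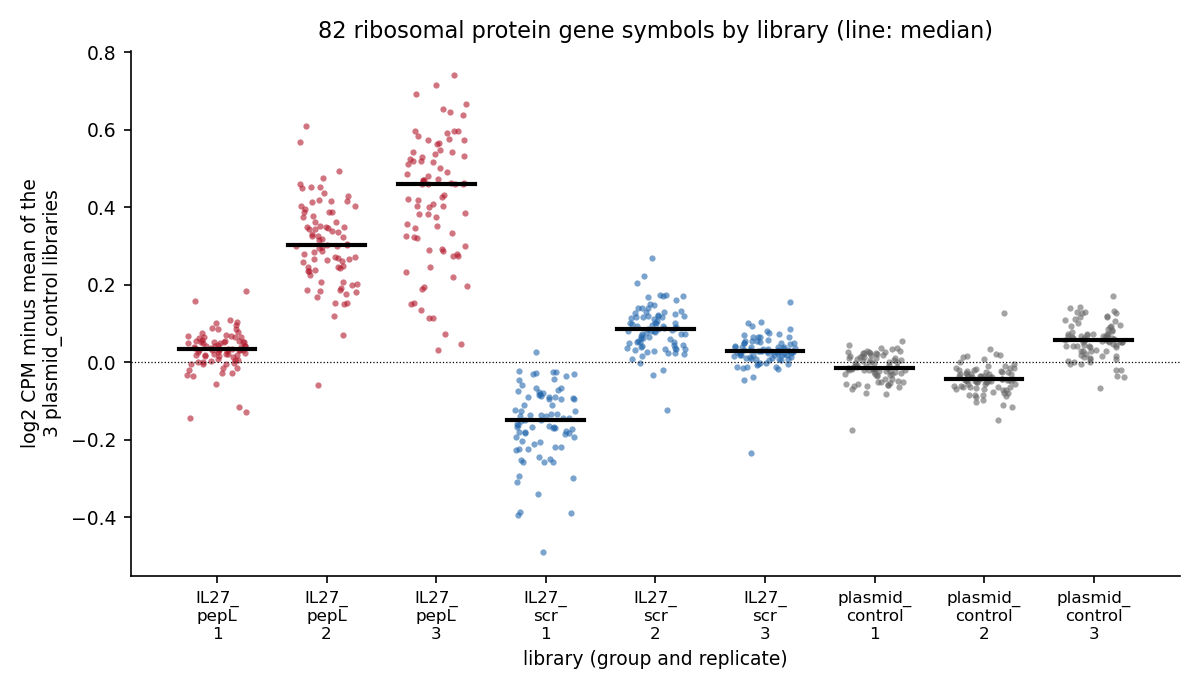
Each point is one of the 82 genes in one library, drawn as its log2 CPM minus the mean log2 CPM of the 3 plasmid_control libraries; black lines are medians. The cloud of IL27_pepL replicate 1 (median 0.03) lies beside the plasmid_control libraries, those of replicates 2 and 3 lie above them (0.30 and 0.46), and that of IL27_scr replicate 1 lies below (-0.15).

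The genes moved together from library to library. Over the 9 libraries the median Pearson correlation between the log2 CPM of 2 members was 0.92 across 3321 pairs, and 64 of the 82 members had a correlation above 0.9 with the mean of the other members. Of the genes outside the set, 4.26% had a correlation above 0.9 with that mean. These correlations describe 9 libraries that share their group differences and their composition of short transcripts, and carry no test. Among the members that followed the others least were Rpl37rt (0.43), Rpl37 (0.68), Rps27 (0.74) and Rpl22l1 (0.75).

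In IL27_pepL against plasmid_control, all 82 genes had a log2 fold change above 0 (50.6% of all genes did), with a median of 0.27 against 0.00 for all genes. None of the 82 passed the threshold of an adjusted p under 0.05 in the quasi-likelihood test of edgeR (Benjamini-Hochberg over all genes), where 0.429% of all genes were called higher and 1.62% in either direction. At an unadjusted p under 0.05, 67 members were higher (11.2% of all genes), DESeq2's Wald test called 25 higher (2.77% of all genes), and limma-voom called 0 (46 of all 12125 genes were called higher). The IL27_pepL libraries lay entirely above the plasmid_control libraries for 22 members, 26.8%, against 10.7% of all genes. They did so for 23.6% of the 712 other protein-coding genes under 1000 bases. The log2 fold changes of the members ran from 0.05 for Rpl7l1 to 0.47 for Rpl41. The outcome of the test turned on IL27_pepL replicate 1: without it 70 members passed (9.96% of all genes were then called higher) and the median was 0.38. Without replicate 3 the median was 0.18, and 0 members passed. In that fit edgeR called 138 of all 12125 genes in either direction, against 197 with all 9 libraries.

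By subunit, the median log2 fold change in IL27_pepL against plasmid_control was 0.28 for the 31 genes of the 40S core, 0.24 for the 42 of the 60S core and 0.35 for the 3 of the stalk. The paralogues had a median of 0.26 and the 2 genes for proteins outside the mature ribosome had 0.05 and 0.21. The groups did not overlap for all 3 stalk genes, 10 of the 40S core (32.3%) and 9 of the 60S core (21.4%). This held, in the same direction, for 10.7% of all genes and 23.6% of other protein-coding genes under 1000 bases. Against IL27_scr it held for 1 stalk gene, 5 of the 40S core (16.1%) and 10 of the 60S core (23.8%). The shares there were 11.7% of all genes and 25.1% of the short genes.

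In IL27_scr against plasmid_control, 34 genes were above 0 and 48 below, with a median of -0.01 against 0.00 for all genes and values from -0.11 for Rpl30 to 0.07 for Rpl22l1. No gene passed the edgeR test (0.0165% of all genes were called higher and 0.0247% in either direction), none had an unadjusted p under 0.05 (0.891% of all genes, higher), none was called by DESeq2 or limma-voom, and for none did the groups stand apart (4.75% of all genes, higher). The 2 comparisons share the plasmid_control libraries.

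The difference between the 2 interleukin-27 plasmids was tested directly. In IL27_pepL against IL27_scr all 82 genes were above 0 (51.1% of all genes), with a median of 0.27, and 1 gene, Rpl41, passed the edgeR test (1.09% of all genes were called higher and 2.52% in either direction). At an unadjusted p under 0.05, 71 were higher (11.9% of all genes), DESeq2 called 33 (3.43% of all genes), and limma-voom called 0 (126 of all 12125 genes were called higher). The groups did not overlap for 17 members, 20.7%, against 11.7% of all genes. Of the 712 other protein-coding genes under 1000 bases, 25.1% stood apart in the same direction. Without IL27_pepL replicate 1, 71 members passed (9.22% of all genes were called higher). Leaving out any library but IL27_pepL replicate 1 or plasmid_control replicate 2 left 0 members past the threshold. In those fits edgeR called 69 to 272 of all 12125 genes in either direction, against 306 with all 9 libraries. Without IL27_scr replicate 1, the lowest library, the median was 0.21.

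**Figure D2:**
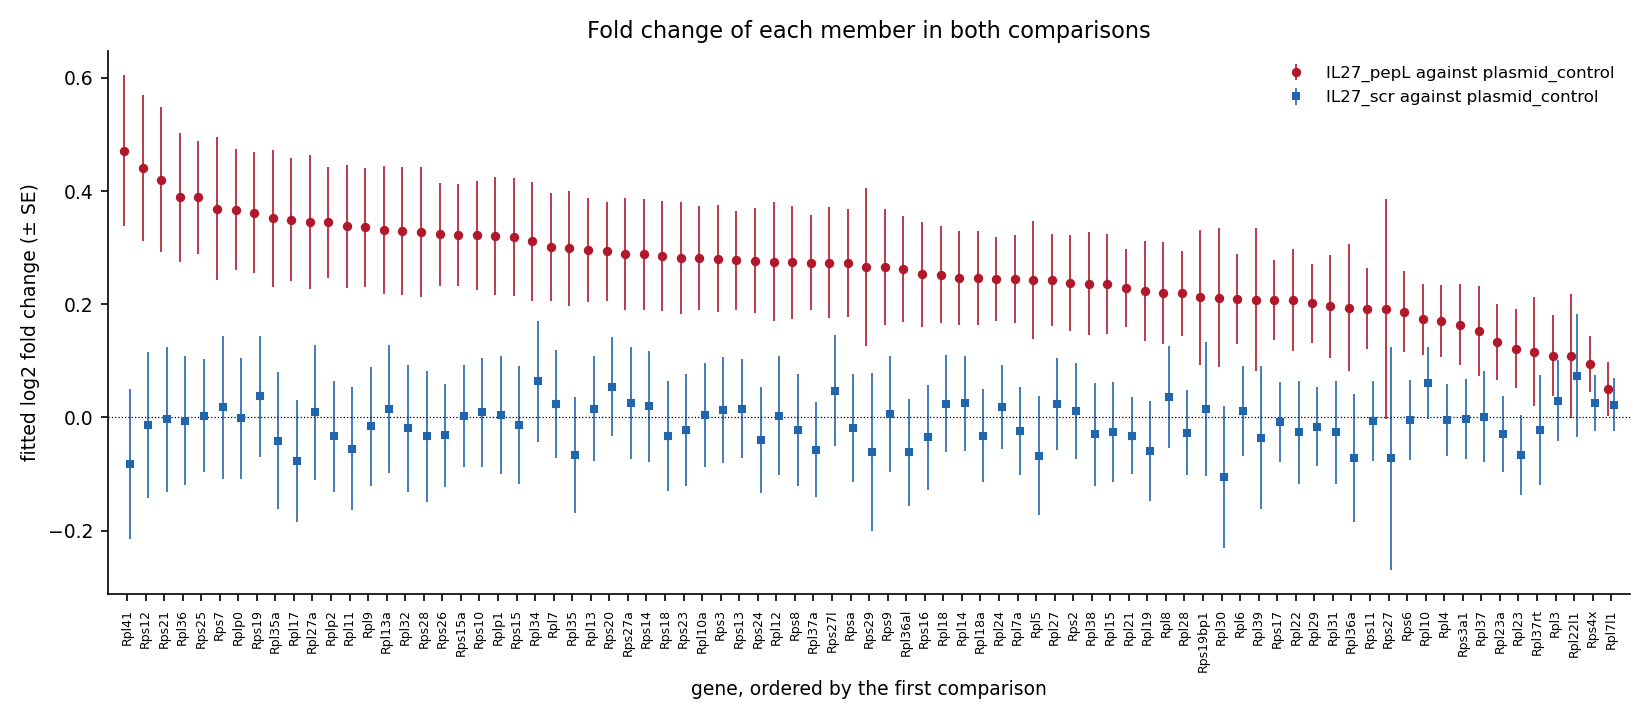
Points are fitted log2 fold changes with standard errors for 81 of the 82 genes, IL27_pepL against plasmid_control as red circles and IL27_scr against plasmid_control as blue squares, ordered by the first. Red points run from 0.47 (Rpl41) to 0.05 (Rpl7l1), all above 0, and blue points lie between -0.11 and 0.07; both use the same plasmid_control libraries.

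Rpl41 encodes the shortest of the ribosomal proteins, a basic peptide at the interface of the subunits. Its coding sequence is shown whole because the gene had the largest fold change and is among the shortest transcripts measured. The gene lies at chr10:128548114-128549305 on the minus strand (GRCm38, GENCODE M21), the sequence of 78 bases is taken from its GENCODE transcript, and capitals mark the start and stop codons.
Rpl41 coding sequence: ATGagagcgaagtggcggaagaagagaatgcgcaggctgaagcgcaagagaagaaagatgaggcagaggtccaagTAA

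Rpl41 stood at 889, 1275 and 1326 CPM in IL27_pepL, at 675, 873 and 829 CPM in IL27_scr and at 797, 779 and 941 CPM in plasmid_control. Replicates 2 and 3 of IL27_pepL were far above the rest, and replicate 1 lay above all 3 IL27_scr libraries but below plasmid_control replicate 3. Rpl41 rose in IL27_pepL against IL27_scr, with a log2 fold change of 0.55 ± 0.13 (SE; edgeR adjusted p = 0.0467). That call was lost with limma-voom (adjusted p = 0.0547) and without any 1 library other than IL27_pepL replicate 1 (edgeR adjusted p = 0.0530 to 0.175). Against plasmid_control it was 0.47 ± 0.13 (edgeR adjusted p = 0.0839), and the IL27_scr value was -0.08 ± 0.13 (edgeR adjusted p = 0.999).

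In the 40S subunit, Rps25, a head protein required for translation from some viral internal ribosome entry sites, had the smallest p against plasmid_control. It had 698, 876 and 984 CPM in IL27_pepL, 593, 684 and 680 CPM in IL27_scr and 655, 611 and 687 CPM in plasmid_control. All 3 IL27_pepL libraries were above all 6 others, by a narrow margin for replicate 1. The log2 fold change was 0.39 ± 0.10 against plasmid_control (edgeR adjusted p = 0.0679) and 0.39 ± 0.10 against IL27_scr (edgeR adjusted p = 0.06).

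Rps12, also of the 40S head, had 1122, 1607 and 1687 CPM in IL27_pepL, 930, 1221 and 1073 CPM in IL27_scr and 1063, 1022 and 1170 CPM in plasmid_control. Replicates 2 and 3 of IL27_pepL were apart, and replicate 1 fell among the other libraries. Its log2 fold change against plasmid_control was 0.44 ± 0.13 (edgeR adjusted p = 0.0895). Rps26, which lines the mRNA exit channel and is mutated in some families with Diamond-Blackfan anaemia in humans, had 837, 955 and 1133 CPM in IL27_pepL, 702, 786 and 799 CPM in IL27_scr and 755, 751 and 831 CPM in plasmid_control, with the IL27_pepL libraries above all others. Its values were 0.32 ± 0.09 against plasmid_control (edgeR adjusted p = 0.0835) and 0.36 ± 0.09 against IL27_scr (edgeR adjusted p = 0.0584).

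Other 40S genes with known roles had log2 fold changes against plasmid_control from 0.19 for Rps6 to 0.36 for Rps19. Rps6, the substrate of the S6 kinases downstream of mTORC1, had 506, 574 and 559 CPM in IL27_pepL, 422, 512 and 502 CPM in IL27_scr and 463, 480 and 497 CPM in plasmid_control. The IL27_pepL libraries were above plasmid_control but overlapped IL27_scr, and the log2 fold change against plasmid_control was 0.19 ± 0.07 (edgeR adjusted p = 0.145). Rps3, of the mRNA entry site, had 0.28 ± 0.09 in the same comparison. Rps19, the gene most often mutated in Diamond-Blackfan anaemia in humans, had 0.36 ± 0.11 and groups that did not overlap. Rps14, whose loss marks the human 5q- syndrome, had 0.29 ± 0.10, Rps27a, made as a fusion with ubiquitin, 0.29 ± 0.10, and Rpsa, also known as the laminin receptor, 0.27 ± 0.10. Apart from Rps6, the edgeR adjusted p values of these 40S genes lay between 0.0912 for Rps19 and 0.123 for Rpsa.

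Rps4x, an X-linked 40S gene, was among the steadiest. It had 1416, 1506 and 1522 CPM in IL27_pepL, 1346, 1452 and 1442 CPM in IL27_scr and 1415, 1353 and 1396 CPM in plasmid_control, a 1.13-fold range over all libraries. The IL27_pepL libraries were above plasmid_control by 1 CPM at the closest point and overlapped IL27_scr. Its log2 fold change against plasmid_control was 0.09 ± 0.05 (edgeR adjusted p = 0.274).

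The stalk proteins, which recruit the elongation factors to the 60S subunit, stood among the higher values. Rplp0, the base of the stalk, had 3343, 3996 and 5027 CPM in IL27_pepL, 3048, 3269 and 3259 CPM in IL27_scr and 3252, 3054 and 3282 CPM in plasmid_control. IL27_pepL replicate 1 was just above the highest of the other groups and replicate 3 was far above. The log2 fold change was 0.37 ± 0.11 against plasmid_control (edgeR adjusted p = 0.0887). Rplp1 had 0.32 ± 0.10 and Rplp2 0.35 ± 0.10, and in both the IL27_pepL libraries were all above plasmid_control.

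Rpl5 and Rpl11, which with the 5S ribosomal RNA can bind Mdm2 and so link ribosome assembly to p53, both peaked in IL27_pepL replicates 2 and 3. Rpl5 had 711, 937 and 850 CPM in IL27_pepL, 571, 763 and 680 CPM in IL27_scr and 673, 681 and 758 CPM in plasmid_control, and the groups overlapped. Rpl11 had 406, 496 and 550 CPM in IL27_pepL, 312, 405 and 388 CPM in IL27_scr and 368, 364 and 418 CPM in plasmid_control. Its IL27_pepL replicate 1 was above all IL27_scr libraries by a margin under 1 CPM and below plasmid_control replicate 3. Against plasmid_control the log2 fold changes were 0.24 ± 0.11 for Rpl5 (edgeR adjusted p = 0.192) and 0.34 ± 0.11 for Rpl11 (edgeR adjusted p = 0.107).

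Several 60S genes stood at the low end of the set. Rpl3, next to the peptidyl transferase centre, had 1459, 1714 and 1740 CPM in IL27_pepL, 1421, 1673 and 1556 CPM in IL27_scr and 1496, 1542 and 1518 CPM in plasmid_control. Its replicate 1 in IL27_pepL was below every plasmid_control library, and its log2 fold change was 0.11 ± 0.07 (edgeR adjusted p = 0.375). Rpl23 had 0.12 ± 0.07, Rpl23a 0.13 ± 0.07 and Rpl37 0.15 ± 0.08 against plasmid_control, and Rpl4, of the exit tunnel, had 0.17 ± 0.06. Rpl10, which joins the 60S subunit late in its assembly, had 0.17 ± 0.06 and a 1.25-fold range over the 9 libraries.

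Rpl7l1, a relative of Rpl7 that acts in 60S assembly, had the lowest value of all. It had 231, 248 and 256 CPM in IL27_pepL, 233, 243 and 246 CPM in IL27_scr and 238, 239 and 234 CPM in plasmid_control, and the groups overlapped. Its log2 fold change was 0.05 ± 0.05 against plasmid_control (edgeR adjusted p = 0.549), against 0.30 ± 0.10 for Rpl7 itself. Rps19bp1, known as a binding partner of Rps19, had 37.3, 45.9 and 59.0 CPM in IL27_pepL, 39.0, 42.9 and 41.9 CPM in IL27_scr and 41.4, 41.3 and 39.8 CPM in plasmid_control, with replicate 1 of IL27_pepL the lowest of the 9.

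**Figure D3:**
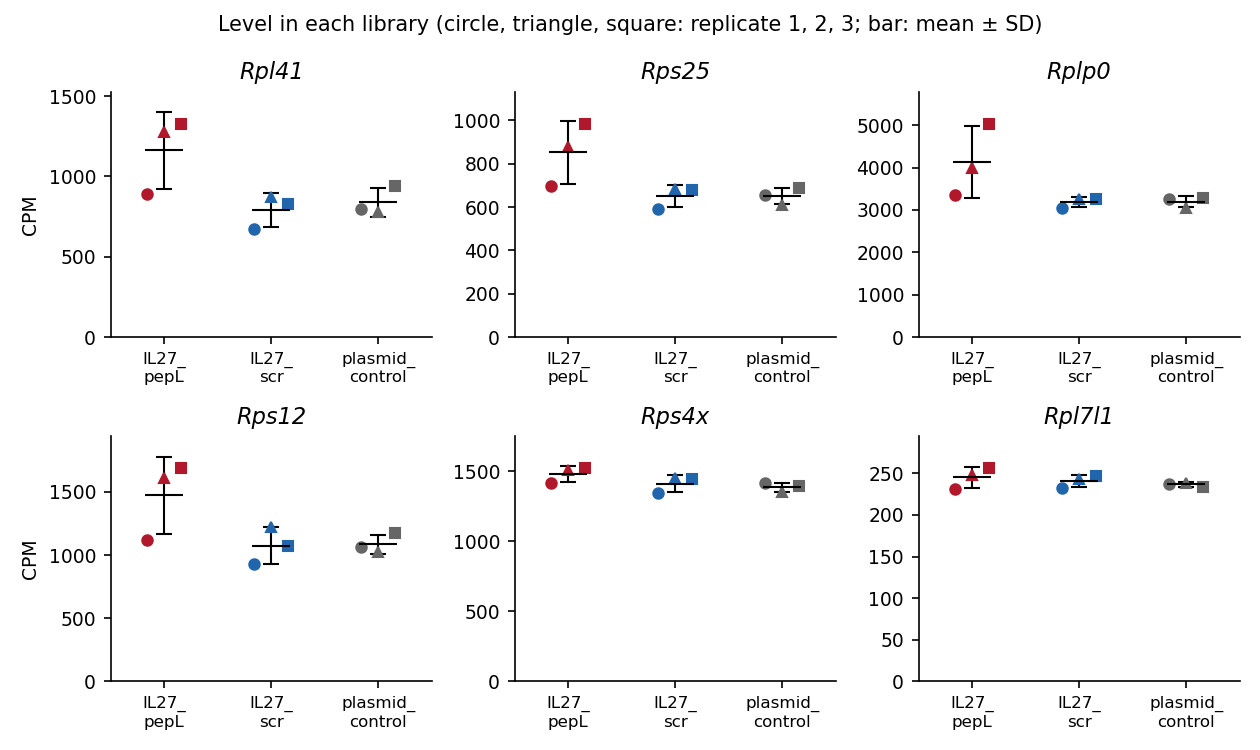
Each panel shows the CPM of one gene in the 9 libraries, by group, with circles, triangles and squares for replicates 1, 2 and 3 and bars for mean ± SD (n = 3); axes start at 0. In Rpl41, Rps25, Rplp0 and Rps12 the triangle and square of IL27_pepL stand above the other libraries and the circle lies near those of the other groups, while Rps4x (1.13-fold range) and Rpl7l1 (1.11-fold range) are nearly level.

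To ask whether any member departed from the others, the fit was repeated with libraries scaled to the members themselves. No member then passed the edgeR test in any of the 3 comparisons. Of all 12125 genes, it called 338 in IL27_pepL against plasmid_control, 3 in IL27_scr against plasmid_control and 805 in IL27_pepL against IL27_scr, in either direction. The value closest to the threshold was that of Rpl41 in IL27_pepL against IL27_scr, at 0.28 ± 0.10 (edgeR adjusted p = 0.0724). Over the 20 alternatives to the main fit, the adjusted p of Rpl41 in this comparison lay between 0.000769 and 0.175, under 0.05 in 9. The fit with no filter, among these 9, only repeats the main fit, since filterByExpr removed 0 genes. Scaling to the members was among these 20, and the others do not set Rpl41 against the members. In IL27_pepL against plasmid_control the members ran from -0.20 for Rpl7l1 to 0.20 for Rpl41. On this scale the median of all genes was -0.24 in IL27_pepL against plasmid_control and -0.26 against IL27_scr.

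Ribosomal protein transcripts are short, and other short transcripts moved the same way in the same libraries. The annotated transcripts of the 82 genes had a median of 705 bases and 64 were under 1000, against a median of 2797 bases for all genes. Rps20 and Rps3 are long in this table (3706 and 1908 bases) because of the annotated transcript used. Relative to the mean of all 9 libraries, the median log2 deviation of the 82 genes was -0.05, 0.22 and 0.36 in IL27_pepL replicates 1 to 3, -0.24, 0.00 and -0.05 in IL27_scr, and -0.10, -0.13 and -0.03 in plasmid_control. The 712 other protein-coding genes under 1000 bases had -0.03, 0.12 and 0.24 in IL27_pepL, -0.12, -0.01 and -0.02 in IL27_scr, and -0.05, -0.09 and -0.02 in plasmid_control. The libraries that were high or low for ribosomal protein genes were thus also high or low for other short genes, by a smaller amount. The 1964 other genes of at least 5000 bases had 0.03, -0.03 and -0.16 in IL27_pepL, 0.06, -0.00 and -0.02 in IL27_scr, and 0.04, 0.05 and 0.04 in plasmid_control.

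In IL27_pepL against plasmid_control, the 19 members under 500 bases had a median log2 fold change of 0.31, against 0.19 for 62 other protein-coding genes of that length. From 500 to under 700 bases the medians were 0.28 for 22 members and 0.19 for 192 others, and from 700 to under 1000 bases 0.24 for 23 members and 0.16 for 458 others. At 1000 bases and over, 18 members had 0.26 and 10487 others -0.01. With an offset for length and GC content, estimated from the genes outside the set, the median of the 82 genes was 0.11, 77 were above 0 and 1, Rps25, passed the edgeR test (adjusted p = 0.0414; 0.635% of all genes were called higher). Over the 20 alternatives run, the adjusted p of Rps25 in this comparison lay between 0.00131 and 0.317, under 0.05 in 5. Against IL27_scr the median with the offset was 0.13 and 6 genes passed (1.58% of all genes were called higher), namely Rpl17, Rpl41, Rplp0, Rps24, Rps25 and Rps26.

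**Figure D4:**
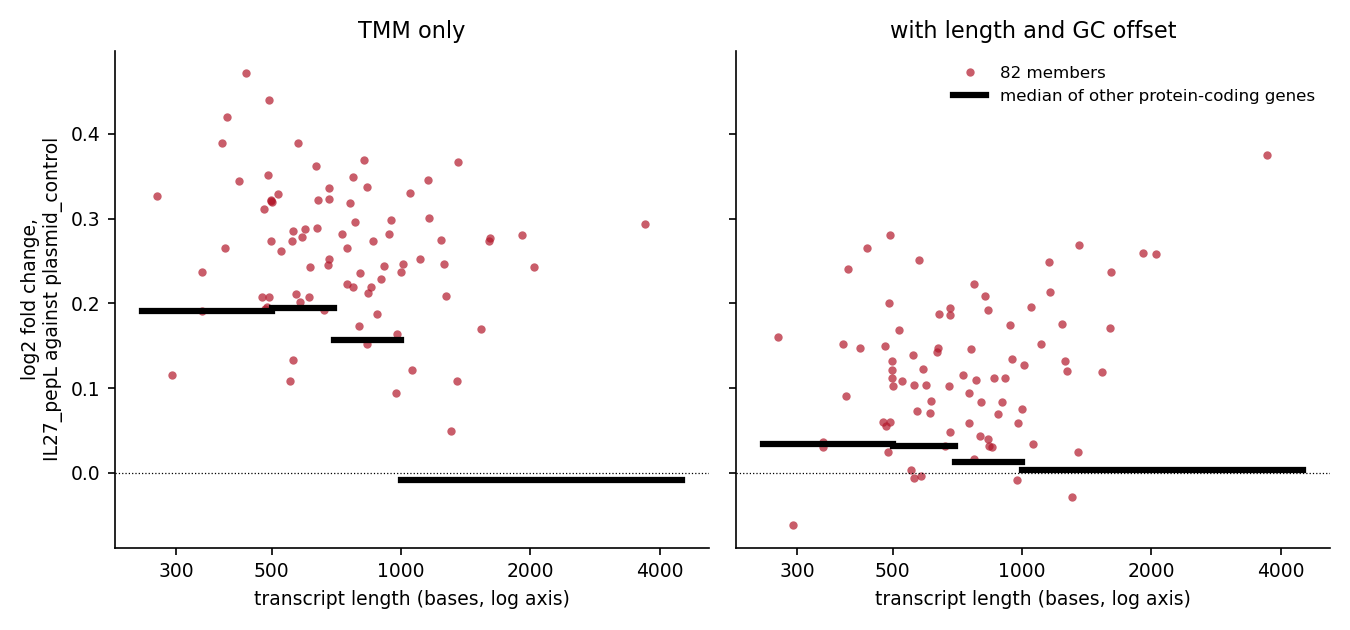
Red points are the 82 genes, by transcript length in bases (log axis) and log2 fold change in IL27_pepL against plasmid_control, on the left as fitted with TMM scaling and on the right with the length and GC offset; black bars are medians of other protein-coding genes in 4 length bins. On the left the bars stand at 0.16 to 0.19 below 1000 bases and at -0.01 above, and on the right at 0.00 to 0.03, with the red points centred on 0.27 and 0.11.

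Levels in the set spanned 372-fold. Per kilobase of annotated transcript, the plasmid_control mean was highest for Rps2, of the mRNA entry site, at 2822 ± 62.5 CPM per kb, followed by Rplp1 at 2681 ± 104, Rplp0 at 2353 ± 90.8, Rpl8 at 2198 ± 29.5 and Rps12 at 2196 ± 155 (SD, n = 3). Rps12 did not differ from Rpl8 beyond its spread, and the intervals of mean ± SD of Rps12 and Rplp0 overlapped. The order also rests on the transcript length annotated for each gene. The median was 777 CPM per kb, with the middle of the set between 470 and 1140 CPM per kb. Only 5 genes were under 100 CPM per kb, namely Rps19bp1 at 48.7 ± 1.04, Rpl34 at 42.0 ± 0.549, Rpl37rt at 25.5 ± 0.95, Rps27 at 17.3 ± 1.92 and Rpl30 at 7.58 ± 0.596.

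Rps27, Rpl34 and Rpl30 encode core proteins, and their levels lay far under those of the other core genes. Rps27 had 5.47, 5.70 and 9.32 CPM in IL27_pepL, 4.52, 5.86 and 6.62 CPM in IL27_scr and 5.25, 6.09 and 6.56 CPM in plasmid_control, and the groups overlapped. Rpl30 had 4.42, 5.20 and 5.42 CPM in IL27_pepL, 3.87, 4.48 and 3.66 CPM in IL27_scr and 4.14, 4.72 and 4.12 CPM in plasmid_control. These were 111 to 275 counts per library. Of the 50-base windows of its transcript, Rps27 shared 98.6% letter for letter with another annotated gene, Rpl30 76.4% and Rpl34 50.6%. The median over the 82 genes was 60.6%, and genes with high levels also shared many windows, such as Rps12 with 90.1%. How the authors' counting treated reads that match several genes is not given in the sources used here, and the part of shared sequence in the low counts was not tested. The values of genes with many shared windows are uncertain for this reason. Among the 5 genes that shared under 10% of windows (among them Rps3, Rpl8, Rps20 and Rps19bp1), the log2 fold changes in IL27_pepL against plasmid_control were 0.21 to 0.32, with a median of 0.28, beside 0.27 for all 82. Of these, Rps20 still shared 277 of its 3657 windows, with 50 other genes, and its percentage is low on a long annotated transcript. Rps19bp1 does not encode a protein of the mature ribosome.

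**Figure D5:**
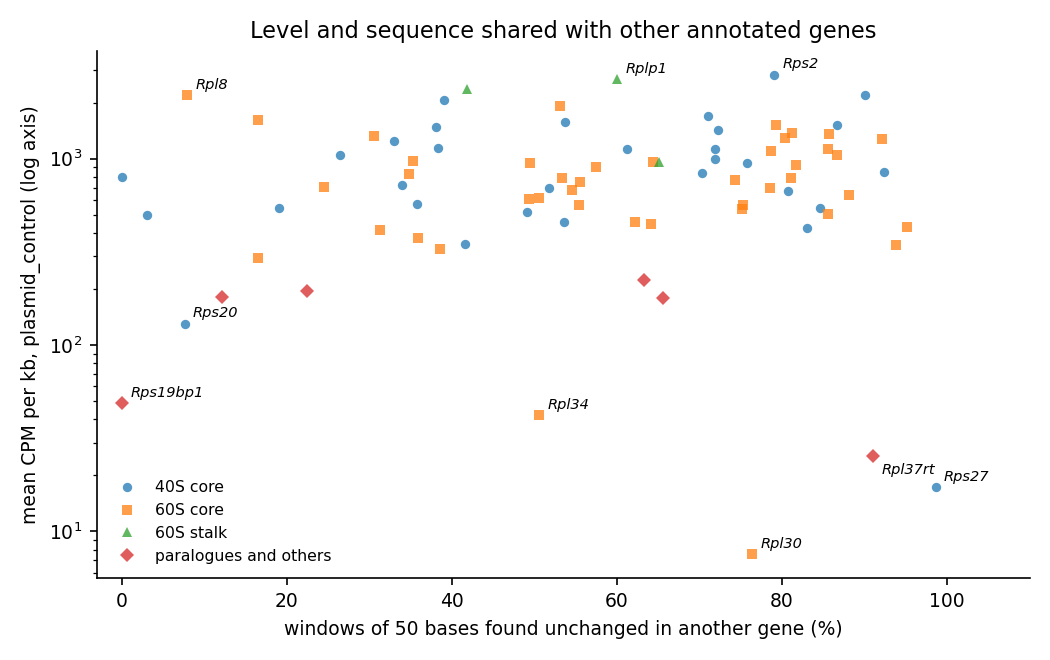
Each point is one gene, by the percent of its 50-base windows found unchanged in another annotated gene and its mean plasmid_control level in CPM per kb of transcript (log axis). The highest points are Rps2 (2822) and Rplp1 (2681), and Rpl34, Rpl37rt, Rps27 and Rpl30 lie at 7.58 to 42.0.

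Paralogues are shown with the genes they resemble, since reads are told apart only where the letters differ. In the coding sequences of Rps27 and Rps27l, 61 of 255 bases differ, and in those of Rpl36a and Rpl36al 39 of 321 differ. Rps27 lies at chr3:90212522-90213651 on the minus strand, Rps27l at chr9:66946086-66949516 on the plus strand and Rpl36al at chr12:69182731-69184083 on the minus strand (GRCm38, GENCODE M21). The sequences of the first pair follow from their GENCODE transcripts, with capitals where the 2 differ.
Rps27: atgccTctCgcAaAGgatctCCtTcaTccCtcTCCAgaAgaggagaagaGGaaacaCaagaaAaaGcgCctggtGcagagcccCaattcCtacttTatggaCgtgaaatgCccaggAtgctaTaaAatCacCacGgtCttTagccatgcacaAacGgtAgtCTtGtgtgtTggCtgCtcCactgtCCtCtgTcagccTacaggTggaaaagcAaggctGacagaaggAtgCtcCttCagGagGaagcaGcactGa
Rps27l: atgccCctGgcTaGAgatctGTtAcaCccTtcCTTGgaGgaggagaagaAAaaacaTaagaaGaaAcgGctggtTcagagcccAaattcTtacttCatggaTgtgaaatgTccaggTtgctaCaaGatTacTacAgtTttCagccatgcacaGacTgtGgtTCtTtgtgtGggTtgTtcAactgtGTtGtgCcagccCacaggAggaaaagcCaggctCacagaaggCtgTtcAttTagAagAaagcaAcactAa

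Rps27l, a target of p53 in human cells, had 95.0, 123 and 133 CPM in IL27_pepL, 91.1, 106 and 103 CPM in IL27_scr and 98.5, 95.2 and 97.0 CPM in plasmid_control. Its IL27_pepL replicate 1 was below all plasmid_control libraries, replicate 2 of that group by a margin under 1 CPM, and replicates 2 and 3 of IL27_pepL were above all others, with a log2 fold change of 0.27 ± 0.10 (edgeR adjusted p = 0.129). Rpl36al had 118, 141 and 162 CPM in IL27_pepL, 103, 117 and 117 CPM in IL27_scr and 112, 112 and 127 CPM in plasmid_control. The IL27_pepL libraries were above IL27_scr and overlapped plasmid_control, with 0.26 ± 0.09 against plasmid_control (edgeR adjusted p = 0.13). Rpl22l1, the paralogue whose splicing Rpl22 is known to repress, had 89.3, 110 and 120 CPM in IL27_pepL, 86.7, 119 and 106 CPM in IL27_scr and 101, 97.5 and 97.1 CPM in plasmid_control. Its groups overlapped, with 0.11 ± 0.11 (edgeR adjusted p = 0.576), and Rpl22 had 0.21 ± 0.09.

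Genes that work with the ribosomal proteins were counted from lists. Fau, which encodes a ribosomal protein fused to a ubiquitin-like sequence, and Gnb2l1 (Rack1), a 40S scaffold, are partners whose symbols fall outside the naming rule. Their log2 fold changes in IL27_pepL against plasmid_control were 0.28 ± 0.09 for Fau (edgeR adjusted p = 0.105) and 0.26 ± 0.08 for Gnb2l1 (edgeR adjusted p = 0.0976), inside the range of the members. Gnb2l1 had 1506, 1808 and 1989 CPM in IL27_pepL, 1480, 1571 and 1522 CPM in IL27_scr and 1535, 1435 and 1462 CPM in plasmid_control, again with replicate 1 of IL27_pepL among the others. Of 23 other TOP mRNAs, mostly of translation factors and including both partners, 21 were above 0 with a median of 0.16. None of the 23 passed the edgeR test, 14 had an unadjusted p under 0.05 (23.0% of all genes did, in either direction), DESeq2 called 8 (2.77% of all genes were called higher) and limma-voom 0. Eif3f, a subunit of initiation factor eIF3, had 0.24 ± 0.07 (edgeR adjusted p = 0.0786). The 77 genes of the mitochondrial ribosome had a median of 0.14, with 73 above 0 (50.6% of all genes) and 1 called higher by edgeR (0.429% of all genes).

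The 20 genes that control the translation of TOP mRNAs, such as the mTORC1 pathway and LARP proteins, had a median of -0.02, with 6 above 0. None passed the edgeR test or limma-voom, 2 had an unadjusted p under 0.05 (23.0% of all genes), and DESeq2 called 1 lower (it called 774 of all 12125 genes in either direction). Larp4b had 111, 121 and 94.5 CPM in IL27_pepL, 139, 124 and 119 CPM in IL27_scr and 131, 141 and 138 CPM in plasmid_control, with IL27_pepL below plasmid_control throughout and a log2 fold change of -0.33 ± 0.08 (edgeR adjusted p = 0.0576). The 13 chaperones and importers of ribosomal proteins had a median of 0.00 and the 8 genes of the Rpl5 and Rpl11 checkpoint -0.02. In each of these lists edgeR, DESeq2 and limma-voom called 0 against plasmid_control and 1 gene had an unadjusted p under 0.05. Against IL27_scr the checkpoint genes had a median of -0.08, 4 of the 8 had an unadjusted p under 0.05 (23.3% of all genes), the smallest edgeR adjusted p was 0.0541, and DESeq2 called 1 lower. The 10 transcription factors known for ribosomal protein genes had a median of -0.06 against plasmid_control. There edgeR and limma-voom called 0, 3 had an unadjusted p under 0.05 (23.0% of all genes), and DESeq2 called 1 lower. Among them was Myc, which had 195, 207 and 222 CPM in IL27_pepL, 242, 256 and 248 CPM in IL27_scr and 234, 272 and 237 CPM in plasmid_control. All 3 IL27_pepL libraries were below the 6 others, and Myc fell in IL27_pepL against IL27_scr, with -0.26 ± 0.06 (edgeR adjusted p = 0.0491). The adjusted p lay between 0.00109 and 0.168 over 20 alternatives and was under 0.05 in 11. Among these 11, the fit with no filter only repeats the main fit, since filterByExpr removed 0 genes. Scaling to the members is also among the 11, and it moves the median of all genes to -0.26 in this comparison. The adjusted p was 0.133 without IL27_pepL replicate 2, and without IL27_scr replicates 1, 2 or 3 it was 0.113, 0.168 and 0.126. Without plasmid_control replicate 1 or 3 it was 0.0688 and 0.0733. Against plasmid_control Myc had -0.25 ± 0.06 (edgeR adjusted p = 0.0619).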

How the data were processed

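The authors deposited 1 table of raw read counts per gene symbol for the 9 libraries, of total RNA extracted with an RNAeasy kit per the labels. The submitters' processing notes name FastQC, STAR, featureCounts of Subread (1.6.1), edgeR (3.22.5) and the build mm10; the sources used here give neither strandedness nor the treatment of multi-mapping reads. Counts were fitted for all 12125 genes in 1 model of 3 groups with edgeR 4.0.16 (R 4.3.3): TMM scaling, filterByExpr (which removed 0 genes), glmQLFit and glmQLFTest, with Benjamini-Hochberg adjustment over all genes and a threshold of 0.05. CPM used TMM-scaled library sizes, and log2 CPM a prior count of 2. Alternatives were DESeq2 1.42.0, limma 3.58.1 (voom), other scalings and filters, only the 2 groups compared, a replicate block, a length and GC offset (splines with 5 degrees of freedom) and leaving out each library. Length and GC content came from the shortest principal transcript in GENCODE M21 (GRCm38), which matched all 82 members and 96.4% of genes; start sequences came from RefSeq (GRCm38.p6). The scripts were tested on simulated data with 200 genes changed. The members, the gene lists and the rule for named genes (the extremes of fold change, p, level and spread, the small classes, and genes with a known role) were chosen with earlier results of these data known. Some single genes are not reported here. No 2 libraries of a group agreed within sampling noise.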

Additional observations from a re-analysis of the deposited data

How the results depend on the processing

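In IL27_pepL against plasmid_control the number of members past the threshold was 0, and it was 25 with DESeq2, 1 with the length and GC offset, and 0 to 70 when single libraries were left out (70 without IL27_pepL replicate 1, 0 otherwise). The median log2 fold change of 0.27 was 0.11 with the offset, 0.0084 when scaled to the members and 0.18 to 0.38 when libraries were left out. In IL27_pepL against IL27_scr the count of 1 was 33 with DESeq2, 6 with the offset, 0 with scaling to the members, 0 with limma-voom, 0 with only the 2 groups compared and 0 to 71 when libraries were left out, and the median of 0.27 was -0.000465 when scaled to the members and 0.19 to 0.39 when libraries were left out. In IL27_scr against plasmid_control the count was 0 throughout, with medians of -0.06 to 0.06. The mean log2 CPM of the members in IL27_pepL replicate 3 was 9.27, and 9.07 with the offset. Scaling to the members sets their own median near 0 by construction, and the cause of the other differences was not tested. The labels do not say what the replicate numbers stand for, so whether they pair the samples is not known. The 9 same-number pairs had a median correlation of 0.10 (range -0.06 to 0.32, over 0.1 in 4), against -0.09 for the other pairs. Of 18 library choices, 12 matched best with their own number. With a replicate block 42 members passed in IL27_pepL against plasmid_control and 49 against IL27_scr (448 and 572 of all 12125 genes were called higher), and 0 in IL27_scr against plasmid_control. With the block and the offset together these were 16, with a median of 0.11, and 27 (311 and 497 of all 12125 genes were called higher). Counts of 111 to 275 per library limit Rps27 and Rpl30 more than the other members.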

Other observations

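Other short motifs near the annotated starts of the ribosomal protein genes were counted in the 62 RefSeq promoter windows (250 bases before to 50 after the start), beside 27025 windows of all genes. CCGGAAG, the core bound by ETS-family factors such as Gabpa, was found on either strand in 24 windows, 38.7%, against 9.93% of all genes. AAGATGG, the core of the YY1 motif, was found on either strand in 10 windows, 16.1%, against 7.28%. TATAAA, read on the gene strand from 40 to 11 bases before the start, was found in 1, that is 1.61%, against 2.51%. CTTTC within 50 bases of the start on the gene strand was found in 31 windows, 50%, against 14.6%, and this motif overlaps the pyrimidine run described above. The median log2 fold change in IL27_pepL against plasmid_control was 0.28 with CCGGAAG and 0.26 in the 38 windows without it, and 0.29 with AAGATGG and 0.27 in the 52 without it. A match describes letters in the window and does not show binding.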
